A study of Oryctolagus cuniculus with 6 samples.

Results

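The genes of DNA double-strand break repair and of base and single-strand break repair were read out in rabbit facial nerve as a list of 36 named genes. They were chosen for their known role, with earlier results of these data known. The count files held a row for 35 of them among 17396 gene rows. EXO1, an exonuclease of end resection, had no row under that symbol and was not analysed here. By role, 6 of the 35 genes belong to damage signalling, 13 to homologous recombination, 3 to the Fanconi anemia pathway, 6 to end joining and 7 to base excision and single-strand break repair.

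Nerves came from wild type male Japanese white rabbits, and both groups had had the facial nerve cut through at its main trunk. The FNI group (facial nerve injury) had the transection alone, and the FNI+I-125 group also had an iodine-125 seed, a sealed source used for brachytherapy, implanted beside the injured nerve. Whole nerve was harvested on day 14, with 3 libraries in each group, and the study's methods give 3 rabbits per group. In bulk tissue, fewer cells of a type and less RNA per cell cannot be told apart.

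A double-strand break is sensed and signalled by the kinases ATM and ATR, which activate CHEK2 and CHEK1 and slow the cell cycle while the break is mended. Homologous recombination copies the lost sequence from the sister chromatid, so that it works in S and G2 phase, and many of its genes are transcribed with the cell cycle. Non-homologous end joining rejoins the ends directly in any phase, including in cells that do not divide. Single damaged bases and single-strand breaks, which ionizing radiation makes along with double-strand breaks, are mended by base excision and single-strand break repair with the help of poly(ADP-ribose) polymerases.

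Total counts were between 16031151 and 16798012 per library, and the repair genes held 0.0745% to 0.0902% of them. Each of the 35 genes had at least 10 counts in every library and was among the 14003 genes tested. The libraries differed in tissue makeup. The summed level of the myelinating Schwann cell markers was 6706, 3026 and 40995 CPM (counts scaled to a common library size) in FNI replicates 1 to 3. It was 536, 3333 and 328 CPM in FNI+I-125 replicates 1 to 3, so that the groups overlapped. FNI replicate 3 was the highest library for 9 of 9 markers, and 0 of 9 had a higher fitted level in the FNI+I-125 group. The macrophage markers summed to 289 to 1003 CPM against 1114 to 1721 CPM, with 7 of 7 tested markers higher. Their lowest sum, 289 CPM, was also that of FNI replicate 3. The skeletal muscle markers reached 4440 and 5002 CPM in FNI+I-125 replicates 2 and 1 against 52.8 to 165 CPM elsewhere, and the salivary gland markers reached 49906 CPM in FNI replicate 2 against 25.3 to 3022 CPM elsewhere. No marker with a row on these 4 lists was at 0 in all libraries. Their part in the results on the repair genes was not tested.

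In the FNI+I-125 group, 24 of the 35 repair genes had a higher and 11 a lower fitted level than in the FNI group. The median log2 fold change (FNI+I-125 against FNI) was 0.29, beside 0.01 over all 14003 genes, and the values ran from -0.73 for XRCC3 to 1.24 for CHEK2. None passed the test across all genes. With edgeR's quasi-likelihood test and Benjamini-Hochberg adjustment, the adjusted p of the 35 genes was between 0.280 and 0.918, and at an adjusted p under 0.05 with a log2 fold change of 1.5 or more in either direction 0 of all 14003 genes (0%) were called. At an unadjusted p under 0.05, 6 repair genes (17.1%) were higher and 1 (2.86%) was lower, where 9.23% and 7.73% of all genes were. The count of 6 was 1 without FNI+I-125 replicate 1 and 3 without FNI replicate 2 or FNI replicate 3. The levels of the groups did not overlap for 7 repair genes (20%) that were higher and 3 (8.57%) that were lower, beside 14.8% and 12.3% of all genes. DESeq2's Wald test gave 0 of the 35 genes an adjusted p under 0.05, where it gave one to 3.83% of all genes in the higher and 2.84% in the lower direction. With limma-voom none of the 35 genes had one either, but it called 0 of all genes at that p with the fold threshold.

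**Figure D1:**
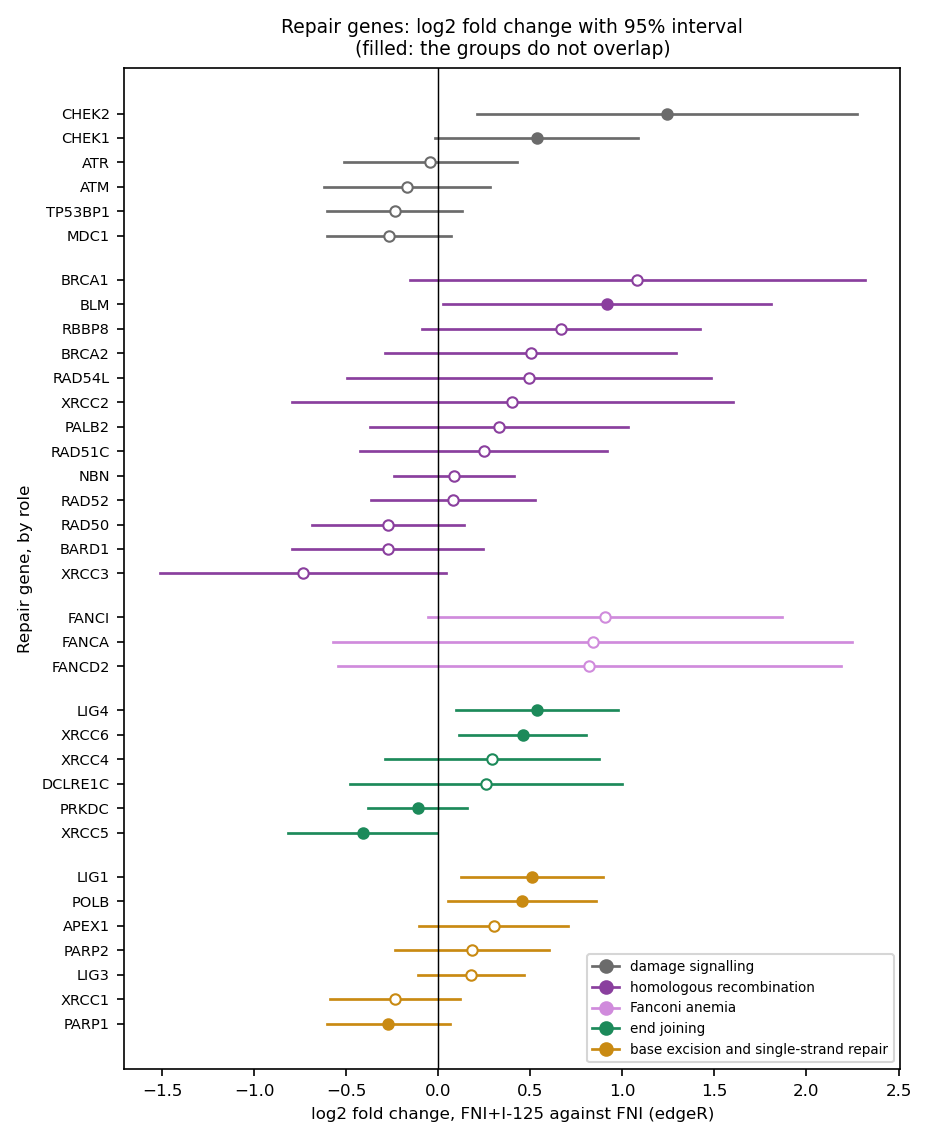
Log2 fold change (FNI+I-125 against FNI, edgeR) of each of the 35 repair genes, in rows by role, with horizontal bars for the 95% interval; filled points mark genes whose 3 FNI and 3 FNI+I-125 libraries do not overlap. The 3 Fanconi anemia genes lie between 0.82 and 0.90 with wide intervals, and the end joining genes lie between -0.41 and 0.54.

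Among the damage signalling genes, the checkpoint kinases CHEK1 and CHEK2 stood higher in the FNI+I-125 group, while the kinases and adaptors upstream of them did not. In what follows values are in CPM in the order of replicates 1, 2 and 3, and a fold change is given with its standard error (SE). CHEK2, which ATM activates after a double-strand break, was at 1.99, 2.02 and 0.827 CPM in FNI and at 4.05, 4.14 and 3.29 CPM in FNI+I-125. Every FNI+I-125 library was above every FNI library, and the log2 fold change was 1.24 (SE 0.42, edgeR adjusted p = 0.280 after Benjamini-Hochberg adjustment, n = 3 per group). These levels rest on 14 to 34 counts per FNI library and 56 to 68 counts per FNI+I-125 library. CHEK1, the kinase that ATR activates at stalled replication forks, was at 3.63, 3.84 and 3.37 CPM in FNI and at 5.23, 4.81 and 5.69 CPM in FNI+I-125. The groups were again apart, with a log2 fold change of 0.54 (SE 0.23, edgeR adjusted p = 0.30, Benjamini-Hochberg).

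The activating kinases showed no such separation. ATM was at 21.8, 26.8 and 31.4 CPM in FNI and at 23.8, 20.8 and 26.7 CPM in FNI+I-125, a log2 fold change of -0.17 with a 95% interval of -0.62 to 0.28. ATR was at 22.1, 20.3 and 23.8 CPM against 26.3, 17.2 and 20.7 CPM, a log2 fold change of -0.04 with an interval of -0.51 to 0.43. Without FNI+I-125 replicate 2 the log2 fold change of ATR was 0.07. The adaptors that gather at the marked chromatin beside a break leaned lower, with overlap. MDC1, which binds phosphorylated histone H2AX, was at 111, 114 and 132 CPM in FNI and at 95, 90 and 112 CPM in FNI+I-125. Its log2 fold change was -0.27 (SE 0.14, edgeR adjusted p = 0.343, Benjamini-Hochberg), and that of TP53BP1, which steers breaks toward end joining, was -0.24 (SE 0.15). The median of the 6 damage signalling genes was -0.11.

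Of the 13 homologous recombination genes, 10 had a higher and 3 a lower fitted level in the FNI+I-125 group, and the FNI+I-125 libraries were widely spread. The homologous recombination median log2 fold change was 0.33, and it ran from 0.19 without FNI+I-125 replicate 3 to 0.49 without FNI+I-125 replicate 2. The 1 gene that was higher at an unadjusted p under 0.05 and had separate groups, BLM, made up 7.69% of the class, below the 9.23% and 14.8% of all genes that met each of these conditions. BLM, the helicase that dissolves recombination intermediates, was at 8.32, 9.51 and 8.04 CPM in FNI and at 25.7, 10.7 and 12.6 CPM in FNI+I-125. All FNI+I-125 libraries were above the FNI libraries and replicate 1 stood far above the rest, with a log2 fold change of 0.92 (SE 0.36, edgeR adjusted p = 0.288, Benjamini-Hochberg) that was 0.43 without that library.

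BRCA1, which promotes end resection, had the highest fold change of the class. Its levels were 1.99, 3.97 and 1.54 CPM in FNI and 7.32, 3.04 and 5.52 CPM in FNI+I-125. The second FNI+I-125 library lay below the second FNI library, so that the groups overlapped, and the log2 fold change was 1.08 (SE 0.51, edgeR adjusted p = 0.319, Benjamini-Hochberg). BARD1, the protein with which BRCA1 forms a ubiquitin ligase, had a lower point estimate, at 14.1, 14.9 and 18.6 CPM in FNI and 16.1, 11.5 and 11.7 CPM in FNI+I-125. Its log2 fold change was -0.27 (SE 0.21), with overlap.

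The genes that act with BRCA1 and BRCA2 gave intermediate values. RBBP8 (CtIP), which starts end resection, was at 7.61, 6.30 and 4.08 CPM in FNI and at 11.6, 7.61 and 9.33 CPM in FNI+I-125, with a log2 fold change of 0.67 (SE 0.31). BRCA2, which acts after resection, was at 5.04, 6.30 and 5.73 CPM in FNI and at 10.5, 4.93 and 8.81 CPM in FNI+I-125, with a log2 fold change of 0.50 (SE 0.32). FNI+I-125 replicate 1 was the highest of the 6 libraries for both genes, and replicate 2 lay within the FNI range for RBBP8 and below it for BRCA2. PALB2, which bridges BRCA1 and BRCA2, had a log2 fold change of 0.33 (SE 0.29). RAD54L, a motor protein of strand exchange, had one of 0.49 (SE 0.40), which was 0.09 without FNI+I-125 replicate 1.

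XRCC3 and RAD51C, which form a heterodimer, had point estimates of opposite sign, both with overlap between the groups. The difference between these genes was not tested. XRCC3 had the lowest fold change of all 35 repair genes, at 19.0, 21.9 and 38.4 CPM in FNI and at 12.5, 16.0 and 19.1 CPM in FNI+I-125. The third FNI library stood far above the rest, and the groups overlapped only between the lowest FNI and the highest FNI+I-125 library. The log2 fold change was -0.73 (SE 0.32, edgeR adjusted p = 0.306, Benjamini-Hochberg) and -0.38 without FNI replicate 3. RAD51C was at 3.75, 3.91 and 3.25 CPM in FNI and at 4.25, 3.41 and 5.28 CPM in FNI+I-125, with a log2 fold change of 0.25 (SE 0.27). XRCC2 was near the limit of the depth, with 10 to 29 counts per library and a log2 fold change of 0.40 (SE 0.49).

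The remaining recombination genes overlapped between the groups. RAD50 and NBN, of the complex with MRE11 that senses and trims broken ends, had log2 fold changes of -0.27 (SE 0.17) and 0.08 (SE 0.13). RAD52, an annealing protein, was at 16.0, 18.3 and 23.0 CPM in FNI and at 21.8, 18.3 and 20.6 CPM in FNI+I-125, a log2 fold change of 0.08 that was -0.03 without FNI replicate 1.

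The 3 Fanconi anemia genes, whose products unhook crosslinks and protect stalled forks upstream of recombination, all had higher fitted levels after seed implantation, and their median log2 fold change was 0.84. FANCI was at 6.27, 5.42 and 4.08 CPM in FNI and at 15.2, 6.21 and 8.10 CPM in FNI+I-125, with a log2 fold change of 0.90 (SE 0.39, edgeR adjusted p = 0.306, Benjamini-Hochberg). FANCD2, which forms a clamp on DNA with FANCI, was at 17.5, 20.7 and 4.43 CPM in FNI and at 25.6, 18.4 and 31.1 CPM in FNI+I-125, with a log2 fold change of 0.82 (SE 0.56). FANCA, of the core complex that ubiquitinates this pair, was at 4.39, 4.79 and 1.54 CPM in FNI and at 10.1, 3.47 and 5.58 CPM in FNI+I-125, with a log2 fold change of 0.84 (SE 0.58). FNI replicate 3 was the lowest of the 6 libraries for all 3 genes, and FNI+I-125 replicate 2 lay within the FNI range for each of them. Without FNI replicate 3, or without FNI+I-125 replicate 1, the class median was 0.45.

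**Figure D2:**
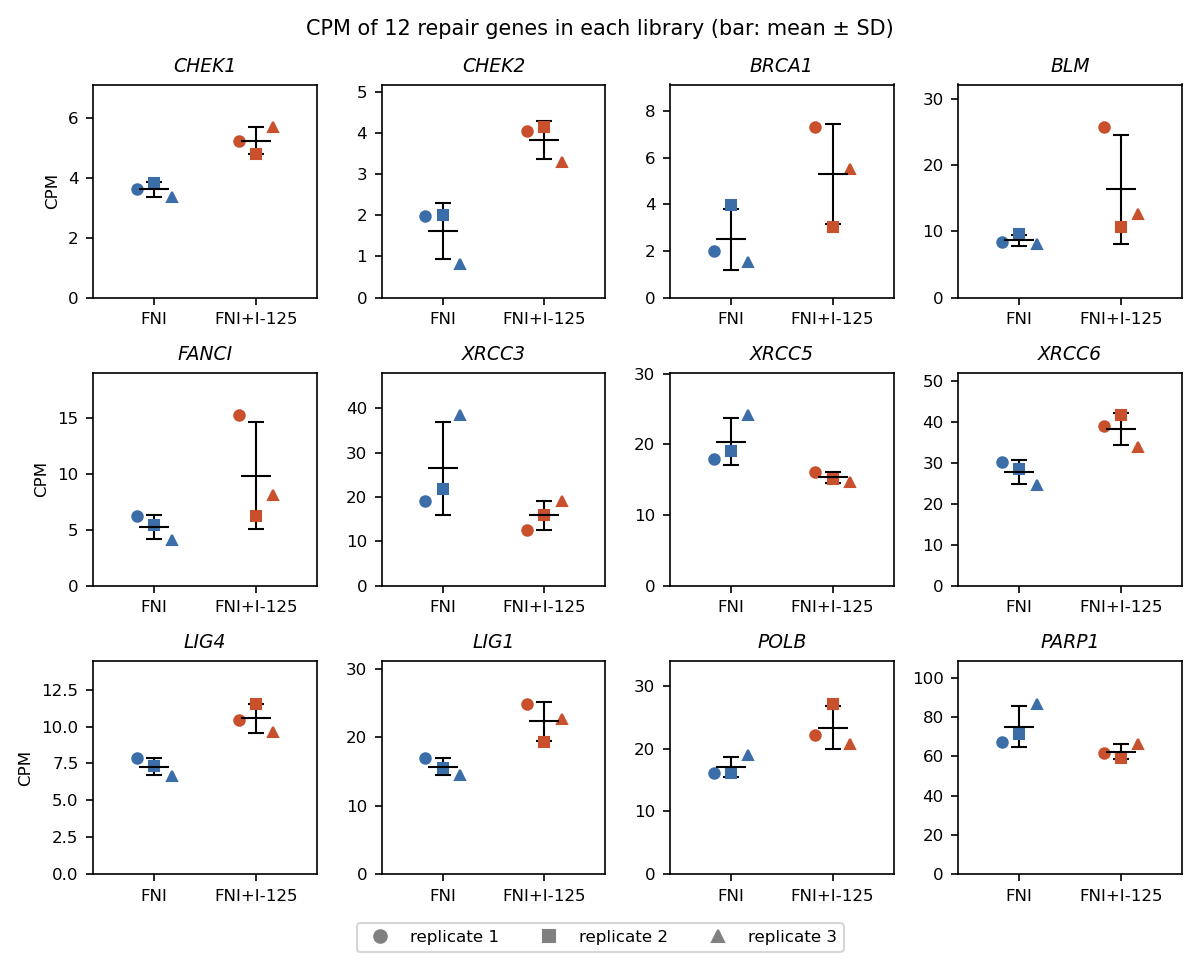
CPM of 12 repair genes in each library, with 1 panel per gene, points for replicates 1 to 3 of FNI and FNI+I-125, and bars for the mean ± SD (n = 3). BLM and FANCI owe their wide FNI+I-125 bars to replicate 1 at 25.7 and 15.2 CPM, whereas XRCC6, LIG4 and LIG1 show narrow groups that do not overlap.

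End joining genes differed within the Ku heterodimer, the ring that XRCC5 (Ku80) and XRCC6 (Ku70) form around a broken end. XRCC6 was at 30.2, 28.5 and 24.6 CPM in FNI and at 39.0, 41.6 and 34.0 CPM in FNI+I-125, or 27.8 ± 2.83 against 38.2 ± 3.88 CPM (SD, n = 3). Its groups did not overlap, and the log2 fold change was 0.46 (SE 0.14, edgeR adjusted p = 0.280, Benjamini-Hochberg). XRCC5 was at 17.9, 19.1 and 24.1 CPM in FNI and at 16.1, 15.1 and 14.7 CPM in FNI+I-125. Here every FNI+I-125 library was below every FNI library, and the log2 fold change was -0.41 (SE 0.17, edgeR adjusted p = 0.292, Benjamini-Hochberg). XRCC5 was the 1 repair gene lower at an unadjusted p under 0.05, a count that ran from 0 to 2 as single libraries were left out. Both Ku genes kept their direction in all 16 alternative settings, and an unadjusted p under 0.05 in 14 of them for XRCC6 and in 8 for XRCC5.

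Of the enzymes that act on Ku-bound ends, the ligase stood higher and the kinase stayed close to level. LIG4, which seals the break, was at 7.85, 7.31 and 6.68 CPM in FNI and at 10.5, 11.6 and 9.63 CPM in FNI+I-125. The groups did not overlap, with a log2 fold change of 0.54 (SE 0.18, edgeR adjusted p = 0.280, Benjamini-Hochberg). PRKDC, the catalytic subunit of DNA-PK, was at 38.9, 41.2 and 39.4 CPM in FNI and at 38.8, 34.0 and 37.9 CPM in FNI+I-125. Its groups were just apart, but the log2 fold change was -0.11 (95% interval -0.38 to 0.16, edgeR adjusted p = 0.589, Benjamini-Hochberg). XRCC4, the scaffold that stabilizes LIG4, and DCLRE1C (Artemis), the nuclease that opens hairpin ends, had log2 fold changes of 0.29 (SE 0.24) and 0.26 (SE 0.30), both with overlap. The median of the 6 genes was 0.28 and was 0.13 without FNI+I-125 replicate 1.

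Base excision and single-strand break repair genes had a ligase and a polymerase that stood higher, while the break sensor PARP1 and the scaffold XRCC1 had lower point estimates. LIG1, which joins Okazaki fragments in S phase and seals long repair patches, was at 17.0, 15.5 and 14.5 CPM in FNI and at 24.9, 19.3 and 22.7 CPM in FNI+I-125. The groups did not overlap, with a log2 fold change of 0.51 (SE 0.16, edgeR adjusted p = 0.280, Benjamini-Hochberg), and with DESeq2 its Benjamini-Hochberg adjusted p of 0.0802 was the smallest of the 35 repair genes. POLB, the polymerase that fills the gap left by a removed base, was at 16.2, 16.1 and 19.0 CPM in FNI and at 22.2, 27.3 and 20.8 CPM in FNI+I-125. It too was higher in every FNI+I-125 library, with a log2 fold change of 0.45 (SE 0.16, edgeR adjusted p = 0.280, Benjamini-Hochberg).

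PARP1, the main sensor of single-strand breaks, was at 67.1, 71.5 and 86.9 CPM in FNI and at 61.6, 58.9 and 66.3 CPM in FNI+I-125. The groups were apart by less than 1 CPM, and the log2 fold change was -0.27 (SE 0.14, edgeR adjusted p = 0.339, Benjamini-Hochberg). XRCC1, the scaffold that PARP1 recruits, was at 42.4, 32.6 and 41.3 CPM in FNI and at 30.5, 34.3 and 34.2 CPM in FNI+I-125, with a log2 fold change of -0.23 (SE 0.14) and overlap. LIG3, the ligase that XRCC1 carries, was at 77.0, 79.1 and 70.6 CPM against 92.0, 77.1 and 87.2 CPM, with a log2 fold change of 0.18 (SE 0.12). PARP2, the second polymerase that DNA breaks activate, and APEX1, the endonuclease that cuts at sites without a base, had log2 fold changes of 0.18 (SE 0.17) and 0.30 (SE 0.17), both with overlap. The median of the 7 genes was 0.18.

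Besides the values given above, the fold changes of further repair genes shrank by more than 1.5 times when 1 library was left out. Without FNI+I-125 replicate 1 the log2 fold change was 0.27 for BRCA2, 0.45 for FANCI, 0.34 for FANCA and 0.03 for DCLRE1C. Without FNI+I-125 replicate 2 it was 0.06 for PARP2, 0.01 for NBN and -0.16 for TP53BP1, and without replicate 3 of that group it was 0.19 for PALB2 and 0.07 for RAD51C. Leaving out FNI replicate 3 gave 0.43 for RBBP8, 0.37 for FANCD2, 0.15 for APEX1, 0.11 for LIG3, -0.06 for ATM, -0.13 for RAD50, -0.16 for BARD1 and -0.17 for PARP1, and leaving out FNI replicate 2 gave 0.11 for XRCC2. None of these genes was at an unadjusted p under 0.05 with all libraries.

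The classes were also followed library by library, as the mean of log2(CPM + 1) over the genes of a class. For the 13 homologous recombination genes it was 3.14, 3.17 and 3.20 in FNI and 3.60, 3.12 and 3.40 in FNI+I-125, so that replicate 2 of the FNI+I-125 group lay below every FNI library and the others above them. For the 3 Fanconi anemia genes it was 3.17, 3.22 and 2.04 in FNI and 4.08, 3.10 and 3.64 in FNI+I-125, also with overlap. End joining was at 3.70, 3.74 and 3.74 in FNI and at 3.97, 3.85 and 3.79 in FNI+I-125, with no overlap. Base excision and single-strand break repair was at 5.05, 5.05 and 5.06 in FNI and at 5.22, 5.19 and 5.21 in FNI+I-125, the narrowest spread of the classes, again with no overlap. The difference was 0.20 for homologous recombination, 0.79 for Fanconi anemia, 0.14 for end joining and 0.15 for base excision and single-strand break repair, and damage signalling, at 4.29, 4.34 and 4.34 against 4.49, 4.30 and 4.51, differed by 0.11. The latter sign is opposite to its median fold change of -0.11, since CHEK1 and CHEK2 weigh more in a mean. These differences were not tested against each other.

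Within the FNI+I-125 group, replicate 1 was the highest library for 10 of the 16 recombination and Fanconi anemia genes, replicate 3 for 5 and replicate 2 for 1. The same library was the highest of its group for 17 of 18 genes of G1/S and replication and for 17 of 18 genes of G2/M and mitosis. It was also the highest for 7 of 8 fibroblast markers, 6 of 7 endothelial markers, 9 of 15 further damage signalling genes and 5036 of all 14003 genes. The mean of the G2/M list was 2.89, 2.98 and 2.39 in FNI and 4.26, 3.34 and 3.65 in FNI+I-125, and that of the G1/S list was 3.41, 3.48 and 2.78 against 4.45, 3.64 and 3.77, with FNI replicate 3 the lowest library for both. For end joining the highest FNI+I-125 library was replicate 1 for 3, replicate 2 for 2 and replicate 3 for 1 of 6 genes, and for base excision and single-strand break repair it was replicate 1 for 2, replicate 2 for 3 and replicate 3 for 2 of 7 genes.

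The cycle lists had larger medians than the repair classes, apart from the Fanconi anemia genes, whose median was above that of the G1/S list. The median log2 fold change was 0.79 over 18 G1/S genes, all with a higher fitted level after seed implantation, and 1.36 over 18 G2/M genes, of which 17 had one. MKI67, a marker of cycling cells, was at 26.0, 30.0 and 12.8 CPM in FNI and at 86.2, 38.1 and 59.2 CPM in FNI+I-125, with a log2 fold change of 1.42 (SE 0.42). TOP2A, the topoisomerase of dividing cells, had a log2 fold change of 0.75 (SE 0.26), MCM2, of the replicative helicase, one of 0.69 (SE 0.40), and PCNA, the replication clamp, one of 0.39 (SE 0.13). The part of cell division in the values of the repair genes was not tested.

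**Figure D3:**
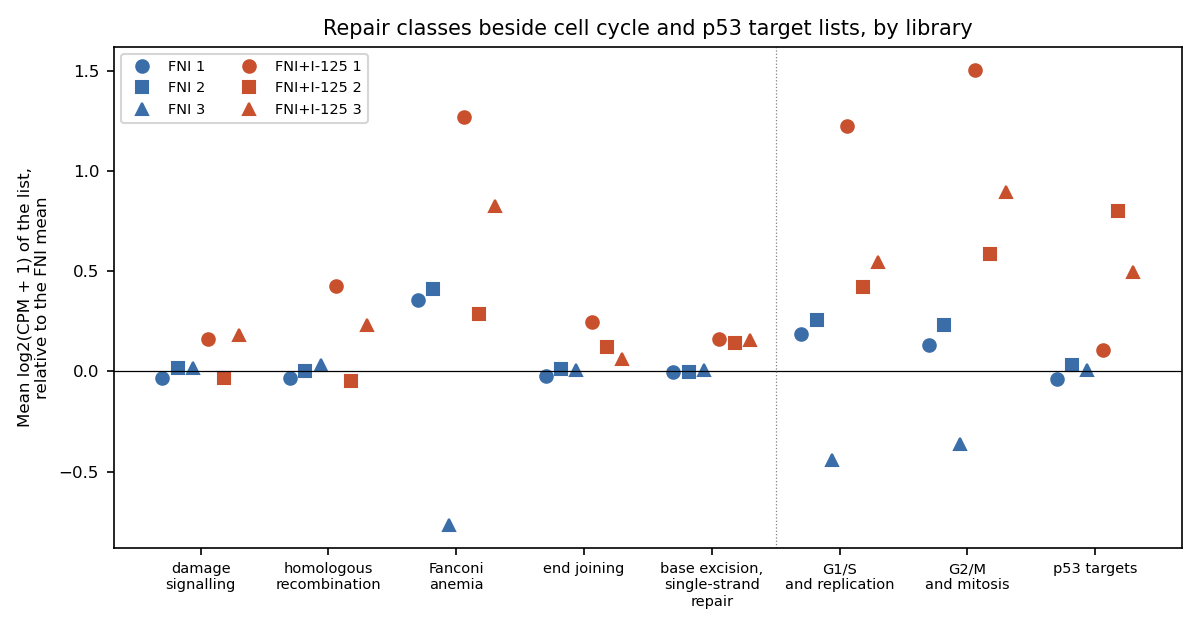
Mean log2(CPM + 1) of each repair class, and of the cell cycle and p53 target lists to the right of the dotted line, in each library, relative to the mean of the 3 FNI libraries (set to 0). In FNI+I-125, homologous recombination, Fanconi anemia and both cycle lists are highest in replicate 1 and lowest in replicate 2, base excision and single-strand repair lies within 0.14 to 0.16 in all 3 libraries, and the p53 targets are highest in replicate 2.

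Targets of p53, the transcription factor that ATM and CHEK2 activate after DNA damage, had another order of libraries. Their mean was 4.61, 4.68 and 4.66 in FNI and 4.76, 5.45 and 5.15 in FNI+I-125, with 13 of 16 genes higher and a median log2 fold change of 0.28. FNI+I-125 replicate 2, the lowest of its group for recombination, was the highest for 11 of the 16 targets. CDKN1A, the p53 target that arrests the cell cycle and a gene singled out here after its values were seen, was at 41.7, 59.5 and 44.4 CPM in FNI and at 106, 390 and 186 CPM in FNI+I-125. Its groups did not overlap, with a log2 fold change of 2.23 (SE 0.49, edgeR adjusted p = 0.280, Benjamini-Hochberg) and 1.56 without replicate 2 of that group.

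Because Ku, BRCA1 with BARD1 and other repair proteins work in pairs, the ratio of the counts of partner genes was taken within each library, where library size cancels. The 12 pairs were chosen after the values had been seen, so the ratios are a description with no test, and a ratio of counts depends on transcript length and is not a ratio of molecules. The XRCC6 to XRCC5 ratio was 1.68, 1.5 and 1.02 in FNI and 2.42, 2.76 and 2.31 in FNI+I-125. The groups lay apart, with a difference of 0.86 on the log2 scale between the group means. This follows from the levels given above, where XRCC6 was higher and XRCC5 lower in every FNI+I-125 library. The RAD51C to XRCC3 ratio was 0.197, 0.178 and 0.0846 in FNI and 0.339, 0.213 and 0.276 in FNI+I-125, a log2 difference of 0.91 without overlap. For CHEK2 over ATM the difference was 1.51 and for CHEK1 over ATR 0.60, both without overlap. For PARP2 over PARP1 it was 0.44, but FNI replicate 2 and FNI+I-125 replicate 3 both had a ratio of 0.219. The BRCA1 to BARD1 ratio differed by 1.39 on the log2 scale, but one library of each group had almost the same ratio, 0.266 in FNI replicate 2 and 0.265 in FNI+I-125 replicate 2. LIG3 over XRCC1, LIG4 over XRCC4, BRCA2 over PALB2, RAD50 over NBN, FANCI over FANCD2 and PRKDC over DCLRE1C overlapped between the groups.

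**Figure D4:**
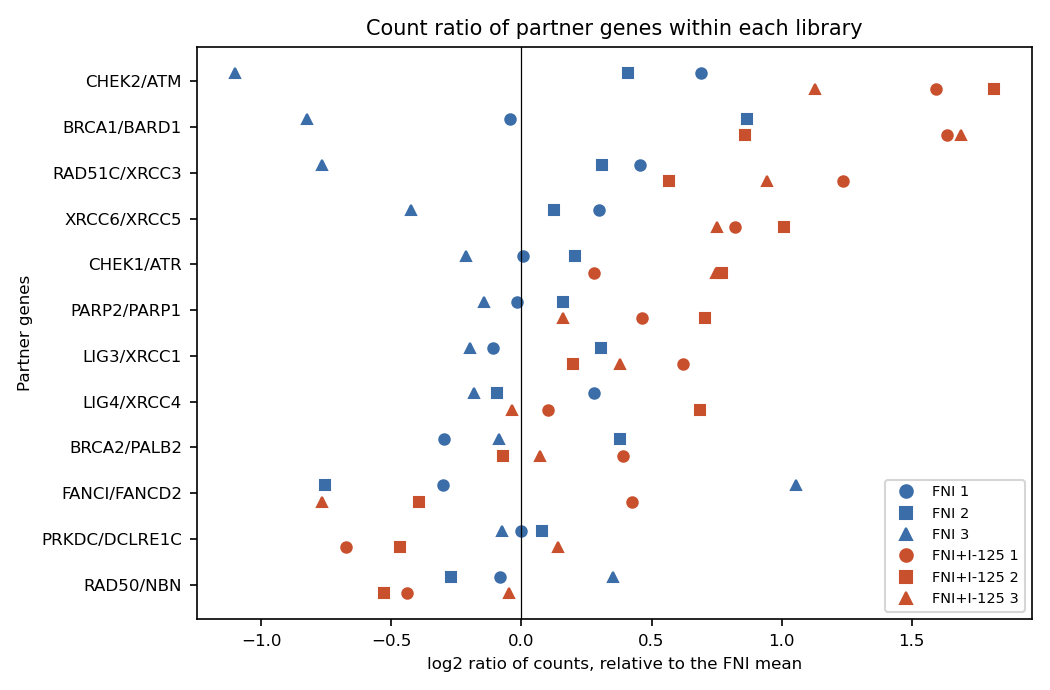
Log2 ratio of the counts of 12 pairs of partner genes in each library, relative to the mean of the 3 FNI libraries (set to 0); circles, squares and triangles are replicates 1, 2 and 3. For the Ku pair XRCC6/XRCC5 the group means differ by 0.86 and the groups do not overlap, while pairs such as RAD50/NBN and FANCI/FANCD2 overlap.

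Further genes of the same pathways, from lists that did not hold the members, were read for comparison. Of 20 other homologous recombination genes, 14 had a higher and 6 a lower fitted level, with a median log2 fold change of 0.36. At an unadjusted p under 0.05, 4 (20%) were higher and 2 (10%) lower, beside 9.23% and 7.73% of all genes. The groups did not overlap for 8 higher (40%) and 3 lower genes (15%), beside 14.8% and 12.3% of all genes. BRIP1, a helicase that binds BRCA1, was at 2.05, 1.39 and 1.77 CPM against 5.82, 2.86 and 3.58 CPM (log2 fold change 1.23, SE 0.38), higher in every FNI+I-125 library. SLX4, the scaffold of structure-specific nucleases, was at 11.4, 13.1 and 8.92 CPM against 19.0, 22.3 and 15.0 CPM (0.76, SE 0.23). GEN1, a resolvase of crossed strands, stayed below 2.5 CPM in all libraries (1.62, SE 0.58).

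Of 15 tested further signalling genes, 10 were higher and 5 lower, with a median of 0.16. At an unadjusted p under 0.05, 2 (13.3%) were higher and 0 lower, beside 9.23% and 7.73% of all genes. CLSPN, the adaptor through which ATR reaches CHEK1, was at 2.75, 2.46 and 1.6 CPM in FNI and at 11.6, 3.71 and 4.23 CPM in FNI+I-125, a log2 fold change of 1.52 that was 0.81 without FNI+I-125 replicate 1. HUS1, of the clamp that activates ATR, was at 18.3, 18.1 and 19.3 CPM in FNI and at 27.3, 22.2 and 25.2 CPM in FNI+I-125, with a log2 fold change of 0.42 (SE 0.14). Both genes were higher in every FNI+I-125 library, which held for 13.3% of these 15 genes and for 14.8% of all genes. RAD9A and RAD1, the partners of HUS1 in its clamp, had log2 fold changes of -0.02 (SE 0.26) and -0.05 (SE 0.26) with overlap.

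Of 9 other Fanconi anemia genes, 5 had a higher and 4 a lower fitted level, with a median log2 fold change of 0.06. FANCC, of the core complex, was the 1 gene (11.1%) with an unadjusted p under 0.05, and 7.73% of all genes were lower at that p. FANCC was lower, at 9.60, 9.70 and 15.6 CPM in FNI and 4.90, 8.83 and 6.4 CPM in FNI+I-125, with a log2 fold change of -0.79 (SE 0.32). Further end joining genes were split as well, 3 higher and 3 lower of 6 tested with a median of -0.01. POLL, a gap-filling polymerase of end joining, was lower at 28.1, 26.1 and 27.1 CPM in FNI against 19.7, 23.0 and 21.5 CPM in FNI+I-125. Its groups did not overlap, with a log2 fold change of -0.34 (SE 0.12). POLL was the 1 gene of these 6 (16.7%) that was lower without overlap, beside 12.3% of all genes.

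Of 14 tested further base excision and single-strand repair genes, 9 were higher and 5 lower, with a median log2 fold change of 0.28. At an unadjusted p under 0.05, 3 genes (21.4%) were higher and 0 lower, beside 9.23% and 7.73% of all genes. The groups did not overlap for 5 higher genes (35.7%) and 1 lower gene (7.14%), beside 14.8% and 12.3% of all genes. PARP3, a poly(ADP-ribose) polymerase family member that acts at DNA breaks, was at 77.9, 58.5 and 54.0 CPM in FNI and at 170 CPM, 134 CPM and 109 CPM in FNI+I-125. The groups lay apart, with a log2 fold change of 1.12 (SE 0.23, edgeR adjusted p = 0.280, Benjamini-Hochberg). With DESeq2 its Benjamini-Hochberg adjusted p was 0.00259. PARP3 was the 1 gene on the pathway lists with a DESeq2 adjusted p under 0.05, where 3.83% of all genes had one in the higher and 2.84% in the lower direction. TDG, a glycosylase that removes mismatched thymine, was at 26.8, 25.8 and 22.3 CPM in FNI and at 39.3, 34.5 and 32.2 CPM in FNI+I-125 (log2 fold change 0.50, SE 0.14). PARG, which removes poly(ADP-ribose) after repair, was at 42.2, 36.8 and 39.5 CPM in FNI and at 46.6, 48.6 and 47.9 CPM in FNI+I-125 (0.27, SE 0.11). PARP3 and TDG kept an unadjusted p under 0.05 whichever of the 6 libraries was left out.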

How the data were processed

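RNA-seq of 6 facial nerve libraries (FNI and FNI+I-125, 3 each, day 14) was analysed. Per the labels, mRNA libraries were made with a TruSeq stranded kit from RNA that passed an integrity threshold, and the submitters' processing notes name HISAT2 and the rabbit build OryCun2.0. The authors deposited raw counts per gene without normalization. The counting program and its strand setting are not given in the sources used here. No reference of that build was used, and no coordinates are printed. Of the gene identifiers, 2992 are LOC numbers, of which 542 were given a symbol from the RefSeq table of mOryCun1.1, and 25 rows hold a spreadsheet date instead of a symbol.

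Groups were compared in R 4.3.3 with edgeR 4.0.16 (glmQLFit and glmQLFTest, TMM factors of 0.923 to 1.06, filterByExpr with a minimum count of 10, 14003 genes kept). Tests were two-sided, and p-values were adjusted over all 14003 genes by Benjamini-Hochberg. The biological coefficient of variation was 43.0%. CPM were computed with TMM-scaled library sizes, and class means used a pseudocount of 1. With 3 libraries per group an exact permutation test cannot give a p below 0.1, so none is given for single genes. The labels do not say that the libraries are separate animals, and the p-values weigh the group difference against the estimated spread between these libraries.

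Alternatives were DESeq2 1.42.0, voom in limma 3.58.1, no filter on low counts, upper-quartile normalization, library size only, library sizes that leave out muscle genes, at least 10 counts in every library, a replicate block, and each library left out. After seeing the data, glmQLFit with legacy = FALSE and library sizes without muscle, gland and myelin genes were added. The tests were tested on simulated data. All members are named. Values in every library are given for members at an unadjusted p under 0.05, with separate groups, or at either end of a class, and for further members and for CDKN1A, chosen after their values were seen. From each pathway list up to 4 genes with an unadjusted p under 0.05 and separate groups are named, and 4 genes stand for the cell cycle. RAD9A and RAD1 are given as the partners of HUS1 and fall outside this rule. A gene that this rule selects is not reported here. The members and lists were chosen with earlier results of these data known.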

Additional observations from a re-analysis of the deposited data

How the results depend on the processing

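At an adjusted p under 0.05 with the fold threshold, 0 of the 35 repair genes were called in all settings run. DESeq2 called 399 of all genes and the fit without FNI+I-125 replicate 3 called 40. Every other setting called 0 of all genes, so the 0 there is not particular to the repair genes. At an unadjusted p under 0.05 the 6 higher genes became 3 with a replicate block and 1 to 5 as each library was left out. The 1 lower gene became 2 with DESeq2, 0 with limma-voom, 0 with library size only, 3 with upper-quartile normalization and 0 to 2 as each library was left out. Leaving out each library, the damage signalling median log2 fold change ran from -0.193 to -0.0217, the homologous recombination median log2 fold change from 0.195 to 0.492, the end joining median log2 fold change from 0.128 to 0.322 and the base excision and single-strand repair median log2 fold change from 0.15 to 0.23. That last median was 0.17 with DESeq2, 0.16 with library size only, 0.14 with upper-quartile normalization, 0.17 with no filter and 0.17 with at least 10 counts in every library. The ATR log2 fold change ran from -0.218 to 0.066 and the RAD52 log2 fold change from -0.032 to 0.218, and these 2 were the only repair genes that changed sign in any of the 16 alternatives. The causes were not tested.

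Same-numbered libraries did not deviate together (correlations of 0.05, -0.19 and -0.14 across genes). Libraries of unlike number had correlations of -0.29 to 0.30. With 3 libraries per group these values cannot settle whether the numbers pair the rabbits. XRCC2, CHEK2 and GEN1 were among the genes that rested on few counts, which limits the precision of their fold changes. The same holds for BRCA1, BRIP1 and CLSPN, with 26 to 63, 22 to 35 and 27 to 47 counts per FNI library.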
